A study of Mus musculus with 6 samples.

Results

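The genes described here are 32 enzymes, regulators and carriers of cholesterol and fatty acid synthesis, measured by RNA sequencing in mouse liver progenitor-like cells (LPCs). They were taken from a list of symbols of the sterol regulatory element-binding protein (SREBP) pathway and kept where a row with that symbol stood in all 6 count tables, which held for each of the 32, out of 20571 gene symbols shared by the tables. The sterol branch holds 21 of them and the fatty acid branch 11. The study grew LPCs from 3 liver sources, with 2 libraries per source, and all cells were cultured in Transition and Expansion Medium (TEM). Bec_LPCs came from pieces of intrahepatic bile duct of wild-type C57BL/6 mice. The pieces were plated in matrigel, grown for 1-2 passages into a monolayer and sorted, and the cells are described as Epcam+. NPC_LPCs came from the non-parenchymal fraction of the liver, which holds the cells that are not hepatocytes, of C57BL/6 mice with the genotype AlbCreERT/R26GFP. In these mice albumin regulatory sequence drives the inducible Cre, so the GFP label depends on albumin expression. Hep_LPCs came from hepatocytes of ROSA26tdTomato C57BL/6 mice that had received AAV8-TBG-Cre, a virus whose Cre is driven by a hepatocyte promoter. Labelled ages were 6-8 weeks in each group, and the growth protocol of the NPC_LPCs and Hep_LPCs gives 8 weeks. Genotype, starting cell and isolation therefore differ together between the groups. No label states that the replicates of a group came from different animals or cultures, and every p-value below reflects only how far these particular libraries spread, which may be technical.

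SREBPs are transcription factors held in the endoplasmic reticulum membrane by the sensor SCAP and the INSIG proteins. When membrane sterol is low they move to the Golgi, are cut, and enter the nucleus, where SREBP2 (Srebf2) mainly drives genes of sterol synthesis and uptake and SREBP1 (Srebf1) mainly those of fatty acid synthesis. Cholesterol is built from acetyl-CoA through mevalonate, isoprenoids, squalene and lanosterol, and liver is one of the main organs that make it. Fatty acid synthesis in the cytosol uses acetyl-CoA from citrate and NADPH from malic enzyme, after which the chains are elongated and desaturated.

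The libraries held between 17575998 and 22985844 counts. The tables of the Bec_LPCs were laid out differently from the other 4 and hold rows that those do not, so a gene that overlaps another gene or has a near-identical copy may have been counted differently there. By the annotation, 25 of the 32 genes share at most 25% of their exonic length with another protein-coding gene and have no near-identical copy. They are called counted alike below, though some of them overlap other genes in part, while Acat2, Idi1, Fdps, Fdft1, Me1, Acaca and Elovl6 are not. The Bec_LPCs replicates differed far less than the others, with a chi-square per degree of freedom of 5.52 over genes, against 111 for the NPC_LPCs and 92.5 for the Hep_LPCs replicates. Hep_LPCs replicate 2 held 1 read of the Y-linked gene Ddx3y and replicate 1 held 1032. Of the markers of hepatocytes, Alb was at most 2.40 CPM (counts scaled to library size, with sizes adjusted by TMM) in any library and Cyp3a11 was at 0 in all 6, while Hnf4a reached 248 and 263 CPM in the Hep_LPCs. The bile duct marker Epcam was at 59.0 and 65.7 CPM in the Bec_LPCs and between 0.116 and 1.84 CPM in the other 4 libraries, whereas Krt19 was present in all 6, from 117 to 1511 CPM. Spp1, the highest of the 6 bile duct markers listed, was higher in the NPC_LPCs (9410 and 4314 CPM) than in the Bec_LPCs (3114 and 2419 CPM). It stood at 3187 and 952.5 CPM in the Hep_LPCs. The 6 summed to between 3436 and 4096 CPM in the Bec_LPCs. The sums were between 4698 and 9798 CPM in the NPC_LPCs and between 2182 and 4924 CPM in the Hep_LPCs. Adipocyte markers, of which 4 were listed, summed to at most 0.346 CPM in any library.

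By its median, each branch was lowest in the Bec_LPCs. For each gene the log2 ratio of its CPM to its geometric mean over the 6 libraries was taken, and the median over the 21 sterol genes was -0.55 and -0.54 in the Bec_LPCs libraries. It was 0.28 and 0.10 in the NPC_LPCs and 0.31 and 0.70 in the Hep_LPCs, so the sterol medians of the Bec_LPCs lay below those of the other 4 libraries and Hep_LPCs replicate 2 stood highest. Summed over the branch, sterol genes took 653.5 and 665.9 CPM in the Bec_LPCs, 1197 and 1112 CPM in the NPC_LPCs, and 1431 and 1928 CPM in the Hep_LPCs. The median over the 11 fatty acid genes was -0.47 and -0.50 in the Bec_LPCs, 0.23 and 0.01 in the NPC_LPCs, and 0.07 and 0.32 in the Hep_LPCs. The fatty acid median was therefore also lowest in the Bec_LPCs, but the NPC_LPCs and Hep_LPCs libraries overlapped. Single genes did not all follow the median, and Acly was highest in the Bec_LPCs. Whether the branches differ in this was not tested.

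**Figure D1:**
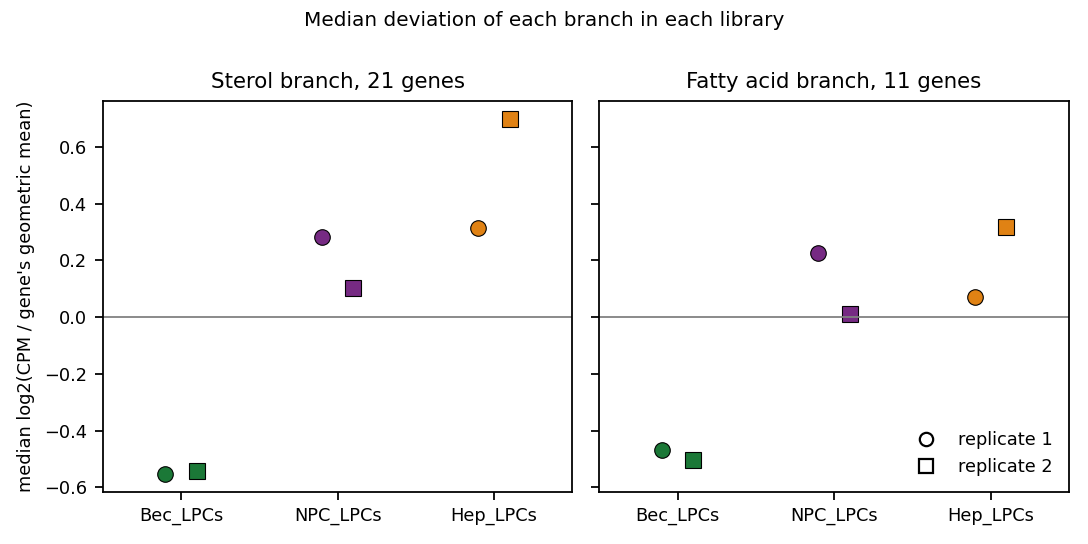
The y axis is the median over a branch of the log2 ratio of each gene's CPM to its geometric mean over the 6 libraries, with one point per library (circles, replicate 1; squares, replicate 2) and the 3 groups along the x axis. In both branches the Bec_LPCs points lie below the others, at -0.55 and -0.54 in the sterol branch and -0.47 and -0.50 in the fatty acid branch.

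In the Bec_LPCs, part of the sterol branch was lower than in either other group, and no gene of the 32 passed the test as higher in the reported fit. Against the NPC_LPCs, 6 of 21 sterol genes fell (Pmvk, Fdps, Sqle, Cyp51, Nsdhl and Sc5d) and none rose at an adjusted p under 0.05 in edgeR's quasi-likelihood test with Benjamini-Hochberg adjustment over all genes tested, beside 6.44% of all 12867 genes that fell and 4.89% that rose. Against the Hep_LPCs, 12 of 21 fell and none rose, beside 17.2% of all genes that fell and 16.1% that rose. With library size alone as the scaling, this balance over all genes turned, with 939 higher and 594 lower against the NPC_LPCs and 2703 higher and 1736 lower against the Hep_LPCs, where TMM gave 629 and 829, and 2075 and 2218. The 12 sterol genes lower than in the Hep_LPCs were Hmgcs1, Pmvk, Idi1, Fdps, Fdft1, Sqle, Cyp51, Msmo1, Nsdhl, Ebp, Srebf2 and Stard4. Fatty acid genes that fell were Fads1 and Fads2 of 11 against the NPC_LPCs, and Me1, Elovl6, Scd1, Fads1 and Fads2 against the Hep_LPCs. All 32 genes passed the filter on low counts in each comparison. The median log2 fold change of the sterol genes was -0.79 against the NPC_LPCs and -1.0 against the Hep_LPCs, that of the fatty acid genes -0.54 and -1.0, and that of all genes tested 0.01 and 0.03. The fatty acid median against the NPC_LPCs was -0.15 without NPC_LPCs replicate 1 and -0.99 in the fit of genes counted alike. Against the Hep_LPCs it was -0.70 without Hep_LPCs replicate 2 and -0.68 among genes counted alike. These 2 comparisons use the same Bec_LPCs libraries, so the second is no independent repeat of the first. The spread in their fit is pooled over the 3 groups, the close Bec_LPCs replicates included. Numbers of calls are therefore not comparable with those of the fit of Hep_LPCs and NPC_LPCs alone. In bulk RNA, fewer cells carrying a transcript and less transcript per cell cannot be told apart.

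At an unadjusted p under 0.05, edgeR put 14 of 21 sterol and 4 of 11 fatty acid genes lower in the Bec_LPCs than in the NPC_LPCs, beside 16.3% of all genes, and 17 and 6 lower than in the Hep_LPCs, beside 23.6%. Both Bec_LPCs libraries lay below both NPC_LPCs libraries in 17 of 21 sterol and 6 of 11 fatty acid genes, beside 33.0% of all genes, and below both Hep_LPCs libraries in 19 and 7, beside 36.8%. In a fit of the genes counted alike, 4 of 17 sterol genes (Pmvk, Sqle, Cyp51 and Nsdhl) and 1 of 8 fatty acid genes (Fads2) fell against the NPC_LPCs, beside 4.17% of all genes in that fit. Against the Hep_LPCs, 9 of 17 and 3 of 8 fell, beside 16.3%. The calls rest on both Bec_LPCs libraries: without either of them, Fdps was the 1 gene of the 8 still called against the NPC_LPCs, and its counts in the Bec_LPCs are not comparable with the others, as described with its values. Apart from Fdps, no member call against the NPC_LPCs was left without either of them. Against the Hep_LPCs, Cyp51, Fdps and Sqle were still called of 17 without replicate 1, and these and Pmvk without replicate 2. Over all genes the calls against the NPC_LPCs dropped from 1458 to 115 and 117 without one or the other, and those against the Hep_LPCs from 4293 to 491 and 489. Without NPC_LPCs replicate 1, Fdps, Pmvk and Sqle were the 3 of the 8 that remained called against the NPC_LPCs. Without Hep_LPCs replicate 2, which lacks Ddx3y reads but for 1, 14 of the 17 remained called against the Hep_LPCs, the exceptions being Idi1, Fdft1 and Fads1.

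Some markers of other cells, and some proliferation genes, also differed between the Bec_LPCs and another group. The 6 stellate and mesenchymal markers summed to between 184 and 221 CPM in the Bec_LPCs, 2.89 and 17.0 CPM in the NPC_LPCs and 1.90 and 4.33 CPM in the Hep_LPCs. Of the 5 tested, 3 rose in the Bec_LPCs against the NPC_LPCs, beside 4.89% of all genes, and 5 against the Hep_LPCs, beside 16.1%, and Lrat was at 0 in all 6 libraries. The 6 proliferation genes summed to between 572 and 681 CPM in the Bec_LPCs, 856 and 1496 CPM in the NPC_LPCs and 1312 and 2245 CPM in the Hep_LPCs. Of these, 4 fell in the Bec_LPCs against the Hep_LPCs, beside 17.2% of all genes, and 0 were called against the NPC_LPCs, where 6.44% of all genes fell. The 7 hepatocyte markers, nearly all of it Hnf4a, summed to between 105 and 128 CPM in the Bec_LPCs, 29.2 and 51.4 CPM in the NPC_LPCs and 257 and 265 CPM in the Hep_LPCs. Of the 4 tested, 2 rose in the Bec_LPCs against the NPC_LPCs, beside 4.89% of all genes, and 2 fell against the Hep_LPCs, beside 17.2%. Of the 6 bile duct markers, 2 rose in the Bec_LPCs against the NPC_LPCs, beside 4.89%, and 1 against the Hep_LPCs, beside 16.1%. Macrophage markers summed to at most 85.9 CPM and endothelial markers to at most 7.38 CPM in any library, while the 3 mesothelial markers summed to between 210 and 830 CPM with all groups overlapping. The part of these differences in the sterol and fatty acid results was not tested.

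The promoters of 5 genes are shown as a description, and whether their motifs bear on the levels was not tested. RefSeq windows on GRCm38.p6, from 250 bases before to 50 after a start site, were at hand for 25 of the 32 genes. Fdps, Fdft1, Sqle, Stard4, Scd1, Scd2 and Fads1 were not matched. Hmgcs1 is shown as the 1 member whose window matched the sterol element, Cyp51, Nsdhl and Fads2 as genes that fell in the Bec_LPCs, and Fasn as a gene called in no comparison. Each is the 250 bases before the RefSeq start, 5′ to 3′ on the gene's strand, at chr13:119690101-119690350 (plus strand) for Hmgcs1, chr5:4104698-4104947 (minus) for Cyp51, chrX:72918271-72918520 (plus) for Nsdhl, chr19:10101504-10101753 (minus) for Fads2 and chr11:120824548-120824797 (minus) for Fasn. The annotation used for overlaps places some starts elsewhere. There Fads2 reaches to base 10101746 and Cyp51 to base 4104746. By it, most of the Fads2 stretch and part of the Cyp51 stretch lie inside the gene. Capitals mark matches, on either strand, to the core of the sterol regulatory element (TCACNCCAC), the NF-Y box (CCAAT) or the GC box (GGGCGG).
Hmgcs1: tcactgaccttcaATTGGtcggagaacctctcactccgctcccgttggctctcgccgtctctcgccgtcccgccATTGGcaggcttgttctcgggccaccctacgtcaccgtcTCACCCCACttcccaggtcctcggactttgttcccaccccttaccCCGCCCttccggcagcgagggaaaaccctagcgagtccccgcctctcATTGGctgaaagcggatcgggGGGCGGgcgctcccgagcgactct
Cyp51: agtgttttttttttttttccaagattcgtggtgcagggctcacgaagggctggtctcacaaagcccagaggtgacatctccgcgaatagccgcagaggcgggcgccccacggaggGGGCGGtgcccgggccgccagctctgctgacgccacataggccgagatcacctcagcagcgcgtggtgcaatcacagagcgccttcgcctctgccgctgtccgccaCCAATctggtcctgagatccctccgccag
Nsdhl: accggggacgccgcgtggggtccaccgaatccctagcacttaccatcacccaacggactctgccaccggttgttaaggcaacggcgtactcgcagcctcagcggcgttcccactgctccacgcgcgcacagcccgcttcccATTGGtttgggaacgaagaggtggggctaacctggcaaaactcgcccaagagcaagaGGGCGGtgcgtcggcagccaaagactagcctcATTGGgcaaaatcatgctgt
Fads2: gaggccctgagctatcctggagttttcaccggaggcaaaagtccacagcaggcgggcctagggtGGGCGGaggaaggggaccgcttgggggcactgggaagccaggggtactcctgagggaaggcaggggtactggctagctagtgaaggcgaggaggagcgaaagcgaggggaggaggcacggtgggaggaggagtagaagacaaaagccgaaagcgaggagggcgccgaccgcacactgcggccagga
Fasn: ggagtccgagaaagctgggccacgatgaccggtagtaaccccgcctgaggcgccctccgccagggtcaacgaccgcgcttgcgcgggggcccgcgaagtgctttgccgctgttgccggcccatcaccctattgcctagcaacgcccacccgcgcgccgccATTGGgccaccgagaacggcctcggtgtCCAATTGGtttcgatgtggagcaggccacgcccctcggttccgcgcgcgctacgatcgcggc

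The Hmgcs1 promoter held the sterol element core with its first base 137 bases before the start, NF-Y boxes at 237, 176 and 45 and GC boxes at 92 and 24. Cyp51 held a GC box at 135 and an NF-Y box at 29, and Nsdhl held NF-Y boxes at 109 and 20 and a GC box at 52. Fads2 held a GC box at 186, and Fasn held NF-Y boxes at 90, 62 and 59, the last pair overlapping on opposite strands. Over the 300-base windows and both strands, CCAAT was found in 16 of 17 sterol and 5 of 8 fatty acid genes with a window, beside 41.1% of 27025 genes. GGGCGG was found in 16 of 17 and 5 of 8, beside 38.2%. The sterol element core was found in 1 of 17 and 0 of 8, beside 1.44%, and the E-box CACGTG in 4 of 17 (Hsd17b7, Sc5d, Dhcr7 and Insig1) and 0 of 8, beside 8.09%. The 27025 genes are all genes with a window, expressed here or not, and were not matched to the members for base content. The shares are therefore no test of enrichment. None of these 4 motifs contains another. A match is a match of letters, and an absent one says only that the letters are not in the window.

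Sterol synthesis starts with the condensation of acetyl-CoA units, for which Acat2 is a cytosolic thiolase. Acat2 read 21.6 and 18.3 CPM in the Bec_LPCs, 32.7 and 36.5 CPM in the NPC_LPCs and 28.4 and 28.2 CPM in the Hep_LPCs. The Bec_LPCs were lowest and no groups overlapped, but Acat2 was called in no comparison, and it has a copy, Acat3, 97.7% identical over 1477 bases. Hmgcs1, the synthase that makes HMG-CoA, stood at 57.6 and 58.7 CPM in the Bec_LPCs, 107 and 115 CPM in the NPC_LPCs and 124 and 194 CPM in the Hep_LPCs. Its groups did not overlap, and it fell in the Bec_LPCs against the Hep_LPCs with a log2 fold change of -1.45 ± 0.24 (SE; adjusted p = 0.0104). Against the NPC_LPCs the log2 fold change was -0.93 ± 0.24 with an adjusted p of 0.0609. An antisense gene shares 35.1% of the coding sequence of Hmgcs1 and is a row in no table, so reads of the 2 could be told apart only if counting used strand, which no source used here states.

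Next along the pathway, mevalonate is phosphorylated and decarboxylated. Mvk, mevalonate kinase, spanned 8.31 to 21.3 CPM and Mvd, the decarboxylase, 8.23 to 22.4 CPM over the 6 libraries, both lowest in Bec_LPCs replicate 1 and highest in Hep_LPCs replicate 2. Neither was called in any comparison, and Mvk overlapped between the Bec_LPCs and NPC_LPCs. Pmvk, the phosphomevalonate kinase between them, read 3.21 and 4.42 CPM in the Bec_LPCs, 18.9 and 16.8 CPM in the NPC_LPCs and 19.0 and 20.8 CPM in the Hep_LPCs. The Bec_LPCs values, from 76 and 103 reads, lay far below the others, and those of the NPC_LPCs and Hep_LPCs lay close together. Pmvk fell against the NPC_LPCs with a log2 fold change of -2.22 ± 0.27 (adjusted p = 0.0108), and against the Hep_LPCs with -2.38 ± 0.27 (adjusted p = 0.00411). It was the largest fall among the sterol genes counted alike against the NPC_LPCs, a 4.67-fold difference.

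Isopentenyl units are isomerised by Idi1 and joined by Fdps, the farnesyl diphosphate synthase. Idi1 stood at 12.8 and 12.5 CPM in the Bec_LPCs, 29.0 and 19.2 CPM in the NPC_LPCs and 24.5 and 25.4 CPM in the Hep_LPCs. The Bec_LPCs were lowest without overlap, the log2 fold change was -0.98 ± 0.26 against the Hep_LPCs (adjusted p = 0.0349) and -0.93 ± 0.26 against the NPC_LPCs (adjusted p = 0.0720), and the gene has 2 near-identical copies. Fdps read 1.77 and 1.37 CPM in the Bec_LPCs, 67.6 and 63.4 CPM in the NPC_LPCs and 48.5 and 86.6 CPM in the Hep_LPCs. Its Bec_LPCs values came from 42 and 32 reads, and the log2 fold changes were -5.37 ± 0.37 and -5.42 ± 0.37 (adjusted p = 0.00227 and 0.00132). The annotation places 85.9% of the coding sequence of Fdps also in the readthrough gene Gm43738, a row that only the Bec_LPCs tables hold, at 0 reads in both, and Fdps has 3 near-identical copies. The level of Fdps in the Bec_LPCs is therefore not comparable with the other groups, and the part of the overlap in it was not tested.

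Squalene is made by Fdft1, epoxidised by Sqle and cyclised to lanosterol by Lss. Fdft1 stood at 28.7 and 30.4 CPM in the Bec_LPCs, 68.6 and 54.2 CPM in the NPC_LPCs and 43.7 and 80.7 CPM in the Hep_LPCs. The Bec_LPCs were lowest and the other groups overlapped. It fell against the Hep_LPCs (log2 fold change -1.07 ± 0.32, adjusted p = 0.0466), while the value against the NPC_LPCs was -1.05 ± 0.32 with an adjusted p of 0.0836. Sqle, a rate-controlling step of sterol synthesis, read 38.3 and 38.2 CPM in the Bec_LPCs, 73.6 and 78.4 CPM in the NPC_LPCs and 226 and 242 CPM in the Hep_LPCs. The 3 groups were clearly apart, with replicates close together in each. Sqle fell in the Bec_LPCs against the NPC_LPCs with a log2 fold change of -0.99 ± 0.15 (adjusted p = 0.0190), and against the Hep_LPCs with -2.61 ± 0.16 (adjusted p = 0.000887), a 6.11-fold difference. Lss spanned 19.7 to 34.7 CPM, was lowest in the Bec_LPCs without overlap and was called in no comparison.

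After lanosterol, the demethylation, reduction and isomerisation steps involve 8 of the genes. Cyp51, which removes the 14-alpha methyl group, stood at 45.5 and 48.9 CPM in the Bec_LPCs, 120 and 98.3 CPM in the NPC_LPCs and 160 and 234 CPM in the Hep_LPCs. The groups stood in that order without overlap. Cyp51 fell in the Bec_LPCs with log2 fold changes of -1.21 ± 0.23 against the NPC_LPCs (adjusted p = 0.0329) and -2.06 ± 0.24 against the Hep_LPCs (adjusted p = 0.00430). Msmo1, the C4 methyl oxidase, read 49.2 and 51.9 CPM in the Bec_LPCs, 94.5 and 69.8 CPM in the NPC_LPCs and 108 and 174 CPM in the Hep_LPCs. It too stood in that order without overlap, and it fell against the Hep_LPCs (-1.48 ± 0.28, adjusted p = 0.0148), with -0.70 ± 0.28 and an adjusted p of 0.153 against the NPC_LPCs. Nsdhl, the C4 decarboxylating dehydrogenase, stood at 17.7 and 15.2 CPM in the Bec_LPCs, 45.9 and 35.8 CPM in the NPC_LPCs and 34.9 and 40.8 CPM in the Hep_LPCs. The Bec_LPCs were lowest and the other groups overlapped, and Nsdhl fell against both, with log2 fold changes of -1.31 ± 0.22 (adjusted p = 0.0238) and -1.20 ± 0.22 (adjusted p = 0.0131).

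Ebp, the sterol isomerase, showed another order. It read 28.3 CPM in both Bec_LPCs libraries, 27.8 and 32.6 CPM in the NPC_LPCs and 64.4 and 70.3 CPM in the Hep_LPCs. The Bec_LPCs and NPC_LPCs overlapped and the Hep_LPCs stood above both. Ebp fell in the Bec_LPCs against the Hep_LPCs (log2 fold change -1.25 ± 0.17, adjusted p = 0.00661), and its value against the NPC_LPCs was -0.09 ± 0.17 (adjusted p = 0.744). Sc5d, the lathosterol desaturase, stood at 57.8 and 53.4 CPM in the Bec_LPCs, 122 and 86.4 CPM in the NPC_LPCs and 85.9 and 79.2 CPM in the Hep_LPCs, with the Bec_LPCs lowest and the NPC_LPCs highest. It fell against the NPC_LPCs with a log2 fold change of -0.91 ± 0.21, close to the threshold (adjusted p = 0.0487), and its value against the Hep_LPCs was -0.57 ± 0.21 (adjusted p = 0.0822).

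The remaining post-lanosterol genes were called in no comparison. Dhcr7, the reductase of the last step to cholesterol, read 23.8 and 24.2 CPM in the Bec_LPCs, 31.4 and 74.5 CPM in the NPC_LPCs and 48.6 and 27.5 CPM in the Hep_LPCs, so replicates of the latter groups spread widely. Tm7sf2, a sterol C14 reductase, was among the exceptions to the low Bec_LPCs levels: 12.7 and 11.8 CPM there, 6.53 and 5.29 CPM in the NPC_LPCs and 2.46 and 9.20 CPM in the Hep_LPCs. Its log2 fold changes were 1.05 ± 0.60 and 1.07 ± 0.60, with adjusted p of 0.287 and 0.212. In some alternative fits Tm7sf2 was called higher in the Bec_LPCs, against the NPC_LPCs or against the Hep_LPCs. Hsd17b7, a sterol ketoreductase, spanned 29.5 to 37.6 CPM, the narrowest range of the branch.

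Of the regulators, Srebf2 stood at 135 CPM in both Bec_LPCs libraries, 170 and 164 CPM in the NPC_LPCs and 249 and 432 CPM in the Hep_LPCs. The groups did not overlap, and the Hep_LPCs replicates were far apart. Srebf2 fell in the Bec_LPCs against the Hep_LPCs (log2 fold change -1.33 ± 0.28, adjusted p = 0.0180), and its value against the NPC_LPCs was -0.30 ± 0.27 (adjusted p = 0.485). Insig1, which retains SREBPs in the endoplasmic reticulum and is itself an SREBP target, spanned 24.1 to 46.7 CPM and was called in no comparison. Stard4, a carrier of cholesterol between membranes, read 23.4 and 25.7 CPM in the Bec_LPCs, 41.2 and 34.7 CPM in the NPC_LPCs and 45.3 and 36.2 CPM in the Hep_LPCs. The Bec_LPCs were lowest, with a fall against the Hep_LPCs of -0.73 ± 0.21 on the log2 scale (adjusted p = 0.0408) and a value of -0.63 ± 0.21 against the NPC_LPCs (adjusted p = 0.101).

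**Figure D2:**
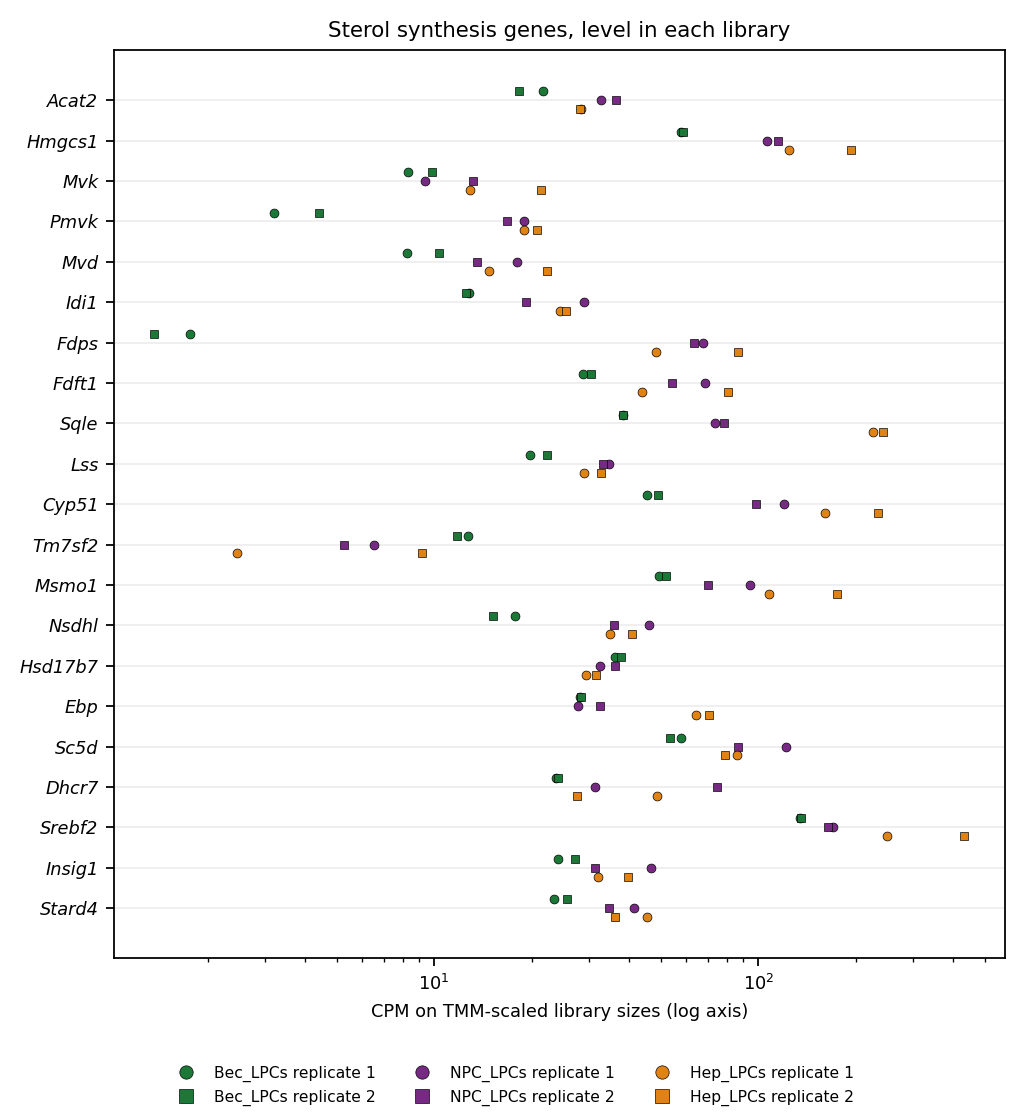
Level of each of the 21 sterol genes in CPM on TMM-scaled library sizes (log x axis), one point per library, coloured by group, with circles for replicate 1 and squares for replicate 2. The green Bec_LPCs points lie left of the NPC_LPCs points in 17 genes and left of the Hep_LPCs points in 19, Tm7sf2 and Hsd17b7 being the exceptions for the latter.

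In the fatty acid branch, the genes of acetyl-CoA supply and chain synthesis were called in no comparison, and those called act in NADPH supply, elongation and desaturation. Srebf1 spanned 54.8 to 72.2 CPM over the 6 libraries, with the Bec_LPCs at 69.4 and 69.5 CPM, and was called in no comparison. Acly, which makes acetyl-CoA from citrate, spanned 245 to 313 CPM and Fasn, the fatty acid synthase, 398 to 545 CPM. Acly was highest in the Bec_LPCs, at 313 CPM in both libraries. Fasn stood at 427 and 444 CPM in the Bec_LPCs, 545 and 398 CPM in the NPC_LPCs and 540 and 458 CPM in the Hep_LPCs. The NPC_LPCs replicates of Fasn enclosed the other 4 libraries, and its log2 fold changes in the Bec_LPCs were -0.11 ± 0.21 and -0.20 ± 0.21 (adjusted p = 0.740 and 0.488). Acaca, the carboxylase that makes malonyl-CoA, spanned 74.2 to 115 CPM and Acss2, an acetyl-CoA synthetase, 3.14 to 9.07 CPM, and neither was called. Acss2 rests on 53 to 157 reads per library.

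Me1, the malic enzyme that supplies NADPH, read 249 and 233 CPM in the Bec_LPCs, 381 and 258 CPM in the NPC_LPCs and 566 and 514 CPM in the Hep_LPCs. The Hep_LPCs stood above both others, and Me1 fell in the Bec_LPCs against the Hep_LPCs (log2 fold change -1.16 ± 0.23, adjusted p = 0.0151). Its value against the NPC_LPCs was -0.41 ± 0.22 (adjusted p = 0.269), and it has 3 near-identical copies. Elovl6, which elongates palmitate, stood at 44.9 and 45.0 CPM in the Bec_LPCs, 71.8 and 58.7 CPM in the NPC_LPCs and 101 and 79.6 CPM in the Hep_LPCs. The groups stood in that order without overlap. Elovl6 fell against the Hep_LPCs (-1.0 ± 0.19, adjusted p = 0.0152), with -0.54 ± 0.19 against the NPC_LPCs (adjusted p = 0.124), and it has 1 near-identical copy.

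Scd1 and Scd2 both put the first double bond into saturated chains. Scd1 read 7.89 and 7.97 CPM in the Bec_LPCs, 7.74 and 29.6 CPM in the NPC_LPCs and 237 and 188 CPM in the Hep_LPCs. The Hep_LPCs were far above all other libraries, and the NPC_LPCs replicates enclosed the Bec_LPCs. Scd1 fell in the Bec_LPCs against the Hep_LPCs with a log2 fold change of -4.74 ± 0.65 (adjusted p = 0.00660), a 26.8-fold difference, and its value against the NPC_LPCs was -1.24 ± 0.58 (adjusted p = 0.208). Scd2 stood at 572 and 533 CPM in the Bec_LPCs, 2019 and 1031 CPM in the NPC_LPCs and 899 and 1436 CPM in the Hep_LPCs. Its Bec_LPCs libraries were lowest and the other groups overlapped, but Scd2 was called in neither comparison, with log2 fold changes of -1.46 ± 0.38 (adjusted p = 0.0633) and -1.08 ± 0.38 (adjusted p = 0.0730).

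Fads1 and Fads2, the delta-5 and delta-6 desaturases that make polyunsaturated chains, lie on the same chromosome. Fads1 read 89.1 and 89.0 CPM in the Bec_LPCs, 340.0 and 191 CPM in the NPC_LPCs and 177 and 298 CPM in the Hep_LPCs. Fads2 stood at 77.1 and 82.7 CPM, 240 and 189 CPM, and 140 and 196 CPM in the same order. For both genes the Bec_LPCs were lowest and the other groups overlapped. Fads1 fell with log2 fold changes of -1.58 ± 0.36 against the NPC_LPCs (adjusted p = 0.0472) and -1.42 ± 0.36 against the Hep_LPCs (adjusted p = 0.0312). Fads2 fell with -1.43 ± 0.23 (adjusted p = 0.0220) and -1.07 ± 0.23 (adjusted p = 0.0195).

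**Figure D3:**
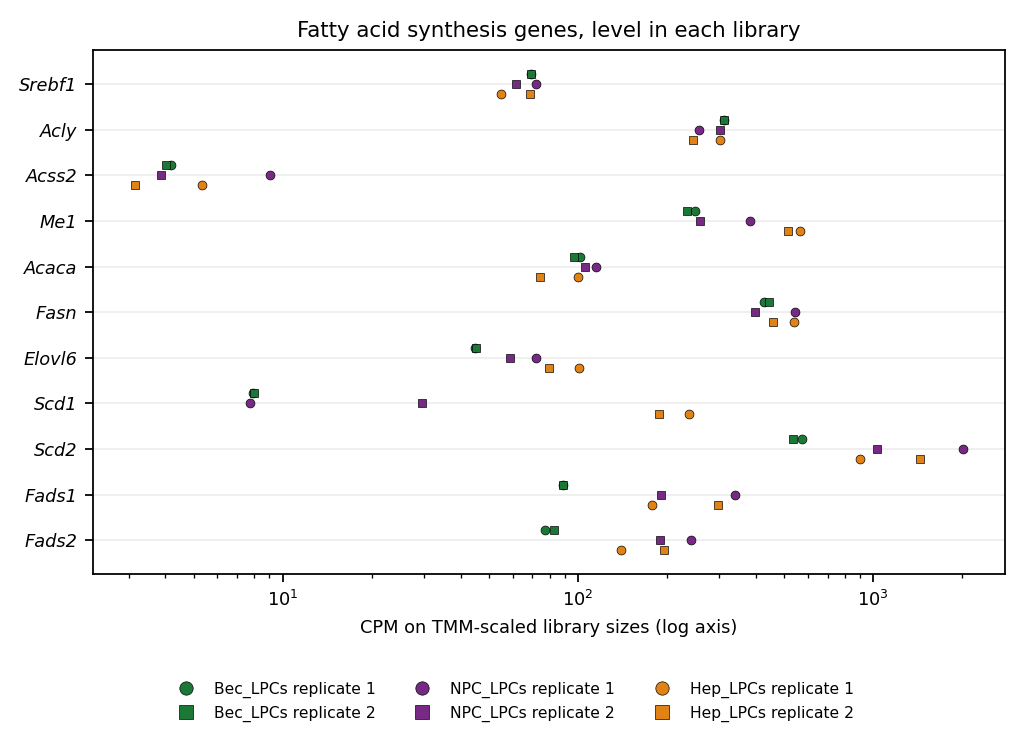
Level of each of the 11 fatty acid genes in CPM on TMM-scaled library sizes (log x axis), one point per library, coloured by group, with circles for replicate 1 and squares for replicate 2. Srebf1, Acly and Fasn points lie close together in all groups, while Scd1 lies at 237 and 188 CPM in the Hep_LPCs and at most at 29.6 CPM elsewhere.

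Between Hep_LPCs and NPC_LPCs, the contrast that the growth protocol names, no gene of either branch passed the test in the fit of their 4 libraries. Of the 32 genes 0 were called by edgeR, beside 0.795% of the 12331 genes tested (98 genes), and the median log2 fold change was 0.04 over the sterol and -0.13 over the fatty acid genes, against 0.00 over all genes. The sign and size of these medians rest on single libraries. The sterol median was -0.0015 without NPC_LPCs replicate 2 and -0.11 without Hep_LPCs replicate 2, but 0.21 without NPC_LPCs replicate 1 and 0.39 without Hep_LPCs replicate 1. The fatty acid median was 0.16 without NPC_LPCs replicate 1 and stayed negative without any other library. At an unadjusted p under 0.05, 4 of 21 sterol and 2 of 11 fatty acid genes were higher in the Hep_LPCs, beside 10.5% of all genes, and none was lower, beside 11.6%. DESeq2 called 3 sterol genes (Sqle, Ebp and Srebf2) and Scd1 higher, beside 5.81% of all genes called higher by it, limma-voom called none of the 32, and limma on the deposited FPKM values called Sqle and Scd1. Both Hep_LPCs libraries lay above both NPC_LPCs libraries in 7 sterol and 3 fatty acid genes, beside 28.9% of all genes, and below in 4 and 1, beside 27.7%.

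Sqle came closest to the threshold in the sterol branch. With 226 and 242 CPM in the Hep_LPCs against 73.6 and 78.4 CPM in the NPC_LPCs, its libraries were well apart, and the log2 fold change was 1.60 ± 0.23 (adjusted p = 0.0530), a 3.03-fold difference. Sqle was called with no low-count filter, with a filter at 10 CPM and in a fit of all 6 libraries. The fit of 6 also called Ebp and Scd1, and in it the SE of Sqle was 0.15 in place of 0.23. Ebp (1.14 ± 0.25, adjusted p = 0.0933), Srebf2 (1.01 ± 0.32, adjusted p = 0.160) and Cyp51 (0.83 ± 0.28, adjusted p = 0.174) were next, each with both Hep_LPCs libraries above both NPC_LPCs libraries. The other 17 sterol genes had log2 fold changes between -0.50 (Dhcr7) and 0.76 (Msmo1).

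Scd1 had the largest difference of the 32 genes in this contrast, with 237 and 188 CPM in the Hep_LPCs against 7.74 and 29.6 CPM in the NPC_LPCs. The libraries did not overlap, and the NPC_LPCs replicates differed more than the Hep_LPCs replicates. Its log2 fold change of 3.48 ± 0.68 was not called (adjusted p = 0.0838), and it was 2.82 without NPC_LPCs replicate 1 and 4.78 without replicate 2. Scd1 was called when either NPC_LPCs replicate was left out, with the lone library assumed to vary like the other group, and was not called when either Hep_LPCs replicate was left out. Me1 (0.74 ± 0.28, adjusted p = 0.200), Elovl6 (0.45 ± 0.25, adjusted p = 0.352) and Acaca (-0.36 ± 0.25, adjusted p = 0.453) were next in the branch, and the other 7 lay between -0.62 (Acss2) and 0.07 (Fasn). Without Hep_LPCs replicate 1 or without replicate 2, edgeR called 0 genes in this contrast over all genes. Of the 3 hepatocyte markers tested in this contrast, 1 was called higher in the Hep_LPCs, beside 43 of all 12331 genes. The part of that marker in these results was not tested.

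**Figure D4:**
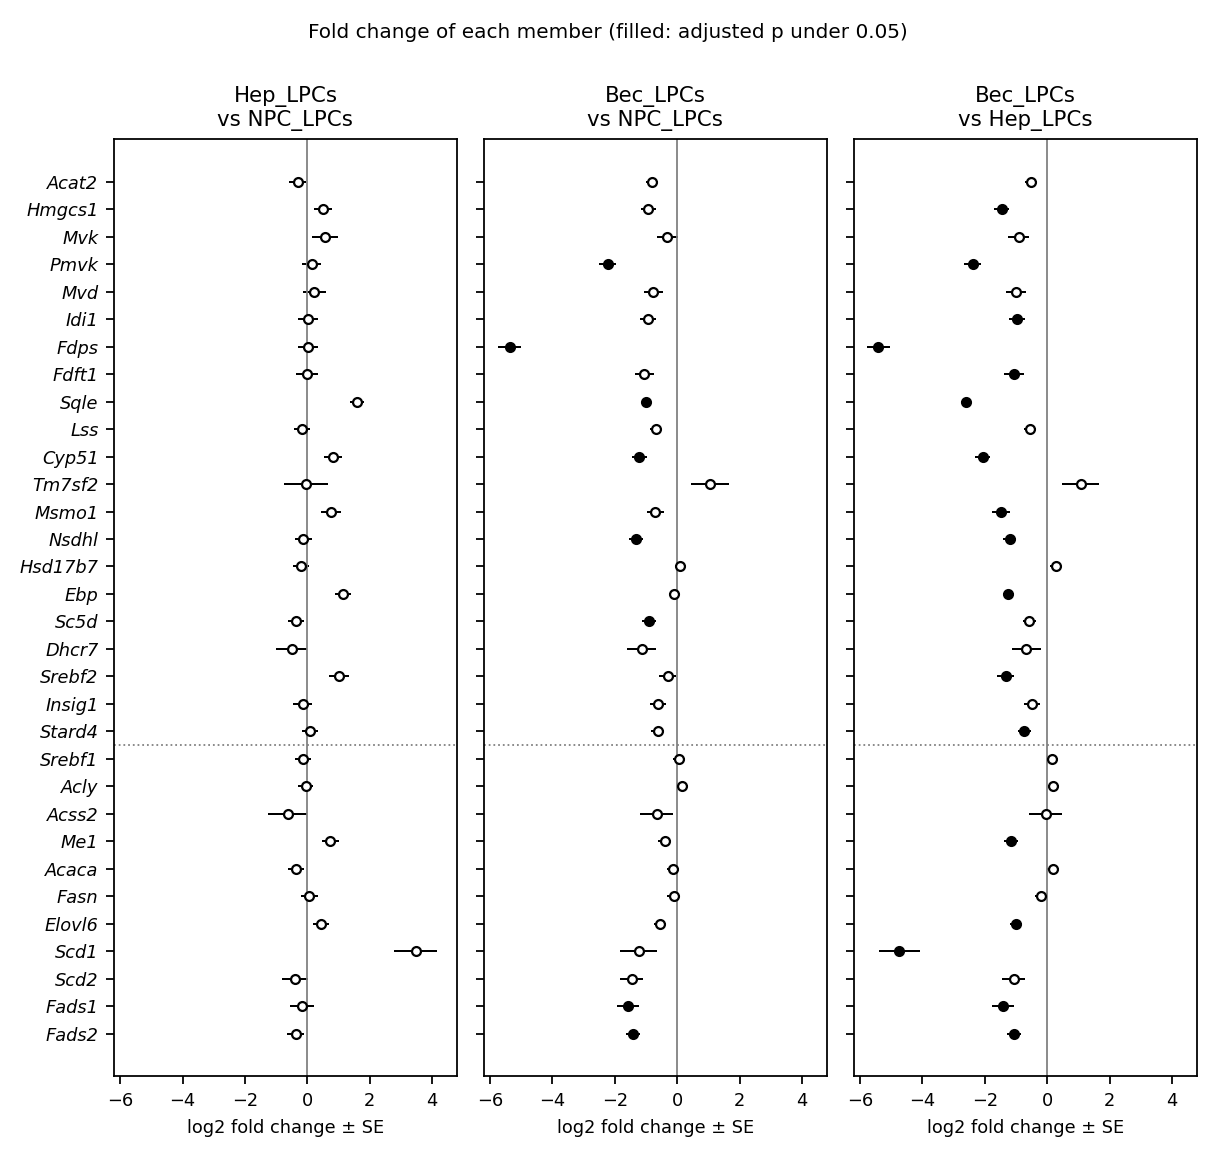
Log2 fold change of each of the 32 genes with its standard error in the 3 comparisons, from edgeR, with filled points at an adjusted p under 0.05 and a dotted line between the sterol genes (above) and the fatty acid genes (below). Filled points are absent between Hep_LPCs and NPC_LPCs, and the 8 and 17 filled points of the Bec_LPCs comparisons all lie left of 0.

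Levels of different genes were compared only per length, from the FPKM values (fragments scaled for gene length and depth) deposited for the NPC_LPCs and Hep_LPCs. Scd2 was the highest of the 32 in all 4 libraries, at 387 and 208 FPKM in the NPC_LPCs and 180.5 and 270.1 FPKM in the Hep_LPCs. Msmo1 was the highest sterol gene in each, at 54.9 and 44.0 FPKM in the NPC_LPCs and 67.4 and 98.2 FPKM in the Hep_LPCs. Sqle ranked 13 of 32 in both NPC_LPCs libraries, at 18.3 and 21.1 FPKM, and 5 and 7 of 32 in the Hep_LPCs, at 55.5 and 63.5 FPKM. Acss2 was the lowest in 3 of the 4 libraries, the exception being NPC_LPCs replicate 1, where Scd1 was lower.

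The balance of the stearoyl-CoA desaturases differed in the same direction in each library. Scd1 stood at 1.24 and 5.04 FPKM in the NPC_LPCs and 39.3 and 30.6 FPKM in the Hep_LPCs. It made up 0.319% and 2.37% of the summed Scd1 and Scd2 FPKM in the NPC_LPCs and 17.9% and 10.2% in the Hep_LPCs. Both Hep_LPCs shares lay above both NPC_LPCs shares, and Scd2 remained the more abundant of the pair in all 4 libraries. With 2 libraries a group this share was not tested.

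**Figure D5:**
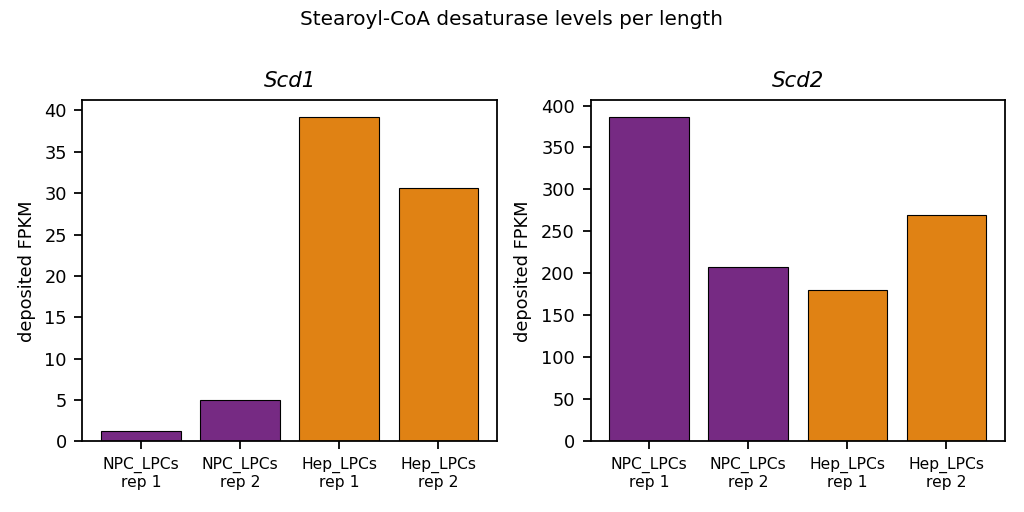
Deposited FPKM of Scd1 (left) and Scd2 (right) in the 2 NPC_LPCs and 2 Hep_LPCs libraries, one bar per library with no error bar, each y axis starting at 0 on its own scale. Scd1 bars reach 39.3 and 30.6 in the Hep_LPCs and 1.24 and 5.04 in the NPC_LPCs, while Scd2 bars overlap between the groups.

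Replicates differed most within the Hep_LPCs and NPC_LPCs. Hep_LPCs replicate 2 was above replicate 1 in 17 of 21 sterol genes, with a median log2 ratio of 0.22, where 50.05% of all genes were above. In the fatty acid genes of the same libraries it was above in 4 of 11, with a median of -0.24. In the sterol genes the largest of these ratios were in Tm7sf2 (1.90), Fdft1 (0.88), Fdps (0.84) and Srebf2 (0.80), and 9 of the 21 sterol genes differed by over 1.5-fold, beside 31.8% of all genes. NPC_LPCs replicate 1 was above replicate 2 in 14 of 21 sterol and 9 of 11 fatty acid genes, with Scd1 (1.94) and Dhcr7 (1.25) the largest of the opposite sign. None of the 32 genes differed by over 1.5-fold between the Bec_LPCs replicates, beside 2.87% of all genes.

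Other genes of the pathway, in 5 lists, were read from the same fits. The lists were written with earlier results of these data known. Between Hep_LPCs and NPC_LPCs, 0 genes of each list were called. The smallest p among them was that of Npc1, which exports cholesterol from lysosomes, at 57.3 and 60.8 CPM in the Hep_LPCs and 206 and 144 CPM in the NPC_LPCs (log2 fold change -1.59 ± 0.27, adjusted p = 0.0679). The 7 genes of sterol sensing and SREBP processing, among them Scap, Mbtps1 and Mbtps2, had 0 called in each comparison. In the Bec_LPCs against the NPC_LPCs, 1 of 6 genes of LXR and its targets rose, beside 4.89% of all genes, 2 of 12 tested in other fatty acid synthesis and elongation fell, beside 6.44%, and 0 of 5 were called in sterol esterification and trafficking and 0 of 5 in glycerolipid synthesis. Against the Hep_LPCs, 1 of 6 genes of the LXR list rose and 1 fell, 1 of 5 rose in trafficking, 3 of 12 fell in fatty acid synthesis and elongation, and 2 of 5 fell in glycerolipid synthesis. In that comparison 16.1% of all genes rose and 17.2% fell, so the shares of 1 in 6, 1 in 5 and 3 in 12 lie near that background.

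Among the LXR targets, Abca1 and Abcg1 were each called higher in the Bec_LPCs in 1 of the 2 comparisons. Abca1, which loads cholesterol onto lipid-poor apolipoprotein, read 28.9 and 23.8 CPM in the Bec_LPCs, 8.60 and 2.24 CPM in the NPC_LPCs and 0.761 and 0.237 CPM in the Hep_LPCs. The groups did not overlap, and Abca1 rose against the Hep_LPCs (log2 fold change 5.70 ± 0.87, adjusted p = 0.00840), with 2.28 ± 0.71 against the NPC_LPCs (adjusted p = 0.0904). Abcg1, an exporter to lipoprotein particles, stood at 3.04 and 5.10 CPM in the Bec_LPCs and at 0.761 CPM or less in the other 4 libraries, with 0 and 3 reads in the NPC_LPCs. It rose against the NPC_LPCs (adjusted p = 0.0293), a fold change that such low counts do not fix, and was not called against the Hep_LPCs (adjusted p = 0.0573). Nr1h3, the oxysterol receptor LXR alpha, was at 0.506 and 0.557 CPM in the Bec_LPCs, 6.01 and 0.407 CPM in the NPC_LPCs and 30.1 and 15.4 CPM in the Hep_LPCs. It fell against the Hep_LPCs (-5.40 ± 1.24, adjusted p = 0.0238). Npc1 rose in the Bec_LPCs against the Hep_LPCs (0.99 ± 0.21, adjusted p = 0.0196).

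In chain elongation and activation, Tecr, the reductase of the elongation cycle, fell in the Bec_LPCs against the NPC_LPCs (-1.21 ± 0.22, adjusted p = 0.0301) and the Hep_LPCs (-0.96 ± 0.22, adjusted p = 0.0251). Acsl3, an acyl-CoA synthetase, stood at 18.7 and 21.6 CPM in the Bec_LPCs, 58.4 and 41.0 CPM in the NPC_LPCs and 101 and 79.4 CPM in the Hep_LPCs. Its groups stood in that order without overlap, and it fell against both (-1.30 ± 0.24, adjusted p = 0.0302, and -2.16 ± 0.25, adjusted p = 0.00419). Elovl5 (-0.70 ± 0.20, adjusted p = 0.0425), Agpat2 (-1.01 ± 0.19, adjusted p = 0.0132) and Dgat2 (-1.68 ± 0.24, adjusted p = 0.00708) fell against the Hep_LPCs and were not called against the NPC_LPCs, and the difference between the comparisons was not tested. Elovl5 elongates polyunsaturated chains, and Agpat2 and Dgat2 act in triglyceride synthesis.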

How the data were processed

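Polyadenylated RNA of 6 libraries was sequenced paired-end with a stranded kit, per the labels' protocols. The submitters' processing notes name Trimmomatic, HISAT2, Cufflinks, HTSeq, DESeq and build mm10; no source used here gives their roles, versions, strand setting or annotation. Each library's table was deposited by the authors with whole-number counts per gene symbol, and FPKM, scaled for length and depth by the authors, for the NPC_LPCs and Hep_LPCs only. In the Bec_LPCs tables, 14 unnamed rows with 44 and 41 reads (0.000191% and 0.000181% of the counts) were left out. Older symbols were updated to RefSeq's (16 in the Bec_LPCs tables, 837 in the others), and the shared symbols held 95.3% to 99.5% of the counts.

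Samples were grouped by title. The 4 Hep_LPCs and NPC_LPCs libraries were fitted together for that contrast, and all 6 for the Bec_LPCs against each, using filterByExpr, TMM and edgeR's two-sided quasi-likelihood test (robust glmQLFit; edgeR 4.0.16, limma 3.58.1, R 4.3.3), with Benjamini-Hochberg adjustment over all genes tested and calls at an adjusted p under 0.05. The code was tested on simulated data. Genes counted alike are protein-coding, share at most 25% of exonic length with another protein-coding gene (bedtools 2.31.1) and lack a copy 95% identical or more across 200 bases (found with minimap2 2.31-r1302), in GENCODE M21. Alternatives were no low-count filter, 10 CPM in 2 libraries, size factors of DESeq2 in place of TMM, no scaling beyond library size, DESeq2's Wald test (1.42.0), limma-voom, a replicate block, other library sets, each library left out, no 50 highest genes, genes counted alike, and limma on log2(FPKM + 1) with 1 FPKM in 2 libraries. The members, the other lists and these settings were chosen with earlier results of these data known. All 32 members are named. Those given in full are the called ones or, where none was called, the 4 per branch with the smallest p; of the other pathway lists, called genes or at most 2 per list. Some further genes of the pathway are not reported here.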

Additional observations from a re-analysis of the deposited data

How the results depend on the processing

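Log2 fold changes of single genes were compared across the settings only for the members called. Between Hep_LPCs and NPC_LPCs, the 4 per branch with the smallest p were taken instead. None of these changed sign under any alternative, and the other members were not followed singly. Branch medians between Hep_LPCs and NPC_LPCs did change sign when 1 library was left out (sterol to -0.0015 and -0.11, fatty acid to 0.16). As 13 of the 21 sterol genes were positive in the reported fit, some of them changed sign there. Genes called between Hep_LPCs and NPC_LPCs, 98 as reported, were 515 with no low-count filter, 172 at 10 CPM in 2 libraries, 1517 by DESeq2, 5 by limma-voom, 1274 in the fit of 6 libraries, 63 among genes counted alike and 165 on FPKM. Sterol genes called there, 0 as reported, were 1 with no filter, 1 at 10 CPM, 3 by DESeq2, 2 in the fit of 6 and 1 on FPKM, and fatty acid genes 1 by DESeq2, 1 in the fit of 6 and 1 on FPKM. Between Bec_LPCs and NPC_LPCs, 1458 genes became 2897 by DESeq2, 2491 in a fit of the 4 libraries of these groups and 806 among genes counted alike, where fewer genes were tested. The 6 sterol genes became 11 by DESeq2 and 10 in the fit of 4, where Tm7sf2 was called higher and 9 were lower, and the 2 fatty acid genes became 1 with library size alone and 1 among genes counted alike. Between Bec_LPCs and Hep_LPCs the 5 fatty acid genes became 3 among genes counted alike. The cause of the other changes was not tested. Library size alone moved the median of all genes to 0.17 and 0.21 on the log2 scale in the Bec_LPCs comparisons and turned the balance of all called genes to 939 higher and 594 lower, and 2703 higher and 1736 lower.

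With 1 library left out at a time, calls between Hep_LPCs and NPC_LPCs ranged from 0 to 361 over all genes, 0 to 0 in the sterol and 0 to 1 in the fatty acid branch. Between Bec_LPCs and NPC_LPCs they ranged from 115 to 2363, 1 to 9 and 0 to 3, and between Bec_LPCs and Hep_LPCs from 489 to 4908, 3 to 12 and 0 to 6. A lone library of a group is assumed to vary like the other groups.

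Same-numbered libraries of different groups showed no strong shared shift: deviations from the group means correlated at -0.0085, 0.087 and -0.039 between groups over 12867 genes. With 2 libraries a group, these values cannot decide whether the replicate numbers pair the samples. With the replicate number as a block, 128 genes were called between Hep_LPCs and NPC_LPCs, 770 between Bec_LPCs and NPC_LPCs (4 sterol and 1 fatty acid gene) and 3390 between Bec_LPCs and Hep_LPCs (9 and 5).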
